A study of Mus musculus with 6 samples.

Results

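Gdf15, Uchl1 and Fhl1 are 3 mouse genes whose products are tied to cell stress in different ways, and their levels were compared here between 3 control libraries and 3 libraries labelled MIRI, short for myocardial ischemia-reperfusion injury, a model where the heart is starved of blood and then supplied again. The genes were chosen by position, because the names of the deposited rows appear not to go with the counts in them. Laid over GRCm38, Gdf15 is read from the row named Tmem161a, Uchl1 from the row Gm43343 and Fhl1 from the row Gm8111. These are 3 of 53509 rows in the table, and all 3 were among the 15777 rows with enough counts to be tested. The rows that carry the names Gdf15, Uchl1 and Fhl1 were not used. This reading assumes that the reads were aligned to GRCm38, which no source used here states. The rows that touch a GRCm38 exon are 36.8% of all rows and held 95.1% of all counts.

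The mice were of the C57BL/6 strain. The control libraries were labelled wild type, while the genotype field of the MIRI libraries held the injury itself, and the names under which the data were deposited call these samples mutant. Genotype and injury therefore cannot be told apart. The labels name the retina as the tissue, the extraction protocol names the intervertebral disc, and the condition names the heart. The design text gives an age of 21 days. The sources used here give neither the sex of the mice nor a batch or an interval after injury. They also do not say whether the 3 samples of a group are different animals. The p-values below therefore reflect only how far these samples scatter, which may be technical.

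GDF15 (growth differentiation factor 15) is a secreted hormone of the transforming growth factor beta superfamily that many cell types release under mitochondrial, nutrient or injury stress, the heart among them. It acts through the receptor GFRAL and its co-receptor RET in the hindbrain, and its gene is a target of the integrated stress response and of p53. UCHL1, also known as PGP9.5, is a deubiquitinating enzyme that is abundant in neurons and neuroendocrine cells, where it is used as a marker. FHL1 is a scaffold protein built of LIM zinc-finger domains and is abundant in heart and skeletal muscle. Its gene lies on the X chromosome and makes several splice forms, some of which differ from the main muscle form by alternative exons.

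What each row reads sets what its level can mean. The row for Gdf15 (ENSMUSG00000038508.7, GRCm38 chromosome 8, 70629393 to 70632456, minus strand) covers 924 bp of the gene's exons, which is 49.9% of all its exon bases, 775 bp of them coding. A further 84 bp of the row lie in the intron and 2665 bp outside the gene. The row for Uchl1 (ENSMUSG00000029223.12, chromosome 5, 66676091 to 66687234, plus strand) is a single block of 1926 bp inside the gene. Only 134 bp of it are exon, namely the whole of coding exons 5 and 6 of the transcript Uchl1-201, and the other 1792 bp are intron. The row for Fhl1 (ENSMUSG00000023092.16, chromosome X, 56731787 to 56793346, plus strand) is a block of 987 bp that holds 200 bp of exon and 787 bp of intron. Those 200 bp are exon 7 of the transcript Fhl1-203 and belong to only 1 of the 10 transcripts annotated for the gene. The Fhl1 row is thus a readout of the alternative exon and its surrounding intron, not of Fhl1 messenger RNA as a whole. None of the 3 rows overlaps an exon of any other gene, and no other row overlaps an exon of these 3 genes. Each of the 3 rows is annotated on the strand opposite to its gene. Reading them as these genes rests on counts made with no strand option, which do not tell sense from antisense reads.

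**Figure D1:**
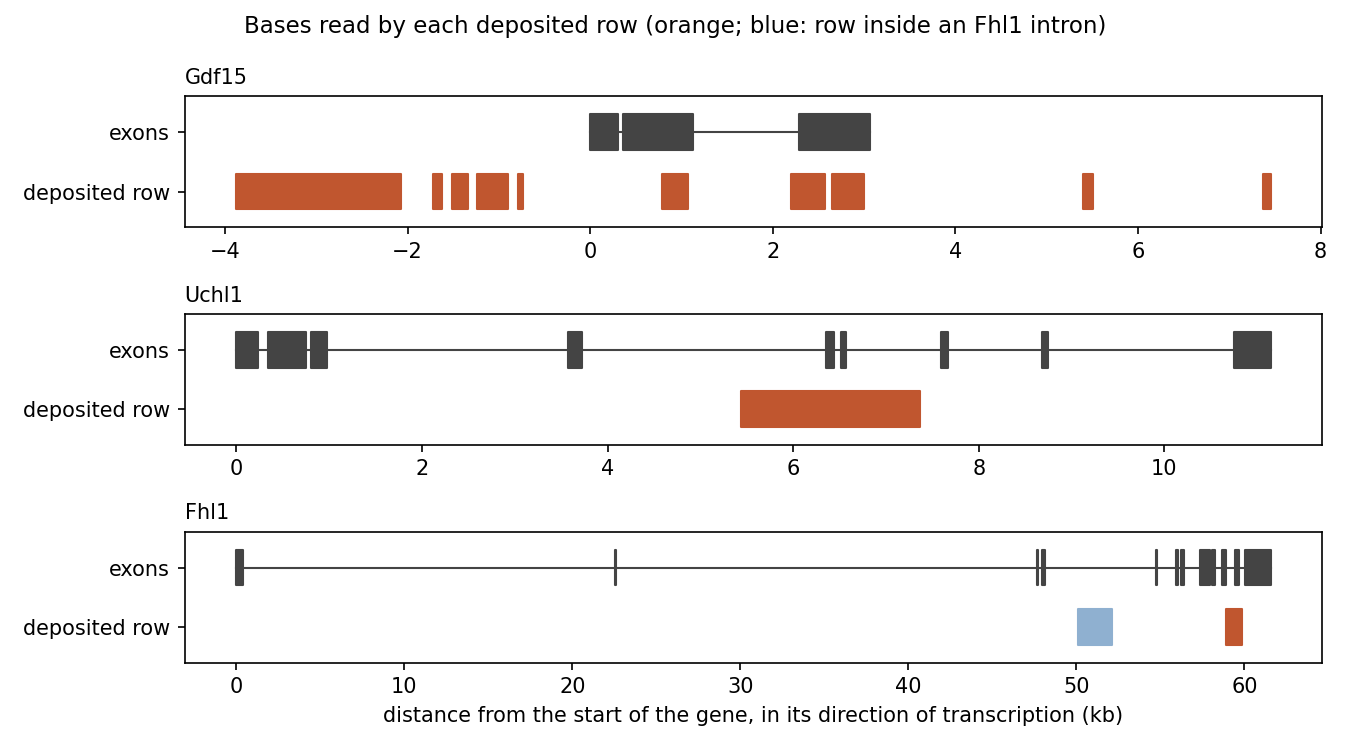
Exons of Gdf15, Uchl1 and Fhl1 in GENCODE M21 (dark bars) and the intervals of the deposited row that reads each gene (orange), by distance in kb from the start of the gene. Each row takes in some exon bases (924, 134 and 200 bp) and bases that are not exon; the blue bar is a 2009 bp row that lies inside an intron of Fhl1.

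Coding stretches that these rows read are printed from the GENCODE M21 transcripts (GRCm38), to show which parts of the messenger RNAs the counts can rest on. For Uchl1 and Fhl1 they are all the exon bases of the row, and for Gdf15 they are 260 of 924. Bases inside the row are in capitals and neighbouring coding bases of the same transcript in lower case, all 5′ to 3′ on the strand of the gene. For Gdf15 the last 260 coding bases before the stop codon are shown (chr8:70629546-70629805), which encode part of the mature hormone. For Uchl1 the capitals are exons 5 and 6 joined (chr5:66682442-66682527 and chr5:66682609-66682656), and for Fhl1 the alternative exon (chrX:56791239-56791438).
Gdf15: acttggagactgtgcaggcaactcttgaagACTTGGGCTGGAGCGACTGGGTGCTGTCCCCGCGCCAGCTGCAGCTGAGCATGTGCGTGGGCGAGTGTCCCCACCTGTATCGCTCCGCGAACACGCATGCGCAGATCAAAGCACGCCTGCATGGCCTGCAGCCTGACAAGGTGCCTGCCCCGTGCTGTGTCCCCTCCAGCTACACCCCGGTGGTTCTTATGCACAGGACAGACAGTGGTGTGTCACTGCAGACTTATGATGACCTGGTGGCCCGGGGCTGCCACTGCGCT
Uchl1: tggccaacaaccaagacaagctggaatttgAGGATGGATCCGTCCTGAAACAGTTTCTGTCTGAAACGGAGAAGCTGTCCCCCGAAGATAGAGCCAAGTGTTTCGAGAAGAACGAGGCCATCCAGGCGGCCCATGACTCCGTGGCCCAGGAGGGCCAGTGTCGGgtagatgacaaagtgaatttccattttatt
Fhl1: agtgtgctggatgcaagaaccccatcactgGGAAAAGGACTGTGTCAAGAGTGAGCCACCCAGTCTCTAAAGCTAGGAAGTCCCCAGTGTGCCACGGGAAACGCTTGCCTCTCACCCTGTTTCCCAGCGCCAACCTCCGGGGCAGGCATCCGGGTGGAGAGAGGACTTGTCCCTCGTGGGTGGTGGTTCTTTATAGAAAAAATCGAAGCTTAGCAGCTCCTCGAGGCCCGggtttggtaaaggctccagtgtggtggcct
The share of G and C bases in the capitals was 63.8% for Gdf15, 58.2% for Uchl1 and 57.5% for Fhl1.

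The libraries held 6859481 to 9250952 counts, so that 1 count was 0.108 to 0.146 CPM (counts scaled to a common library total). Of the labelled and stated tissues, marker genes of which are also named by position, photoreceptor genes summed to 9.62 to 20.6 CPM per library (5 of 13 markers had a row), disc and cartilage genes to 27.9 to 37.3 CPM (7 of 17) and striated muscle genes to 11.6 to 23.8 CPM (18 of 40, with Myh6, Mybpc1 and Actn2 at 0 counts in every library). Fibroblast and matrix genes summed to 60158 to 83461 CPM (10 of 13), led by Fn1, which encodes fibronectin. These sums cover part of each gene's exons, and the defining markers Col2a1, Acta1, Tnnt2 and Myh7 had no row by position. In bulk samples, fewer cells of a type and less RNA per cell cannot be told apart.

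None of the 3 genes passed the test between MIRI and control, and the groups overlapped for all 3. Gdf15 was 1.34-fold as high in MIRI as in control, Uchl1 0.748-fold and Fhl1 1.22-fold, by the fitted fold change. Across the 15777 rows tested with edgeR, 0% were called higher or lower at an adjusted p of 0.05, an unadjusted p under 0.05 was found for 4.34% of rows (1.62% higher, 2.72% lower), and the groups did not overlap in 8.81% (3.63% higher, 5.18% lower). The DESeq2 test called 8 rows higher and 77 lower, none of them a row of the 3 genes. Of the 3 genes, 1 had an unadjusted p under 0.05, and 0 had groups that did not overlap. All 3 had the same adjusted p of 0.9996 (edgeR's quasi-likelihood test, two-sided, Benjamini-Hochberg over all tested rows).

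Gdf15, the stress hormone, was at 36.4, 55.2 and 42.3 CPM in controls 1 to 3 and at 82.5, 43.4 and 53.2 CPM in MIRI 1 to 3. MIRI 1 stood above the other 5 libraries, while the other 2 MIRI libraries lay between the lowest and the highest control. The group means were 44.6 ± 9.59 CPM (SD, n = 3) in controls and 59.7 ± 20.3 CPM in MIRI. The log2 fold change was 0.42 ± 0.22 (SE), with a 95% interval of -0.09 to 0.92 and an unadjusted edgeR p of 0.094. The interval spans folds of 0.941 to 1.90. Without MIRI 1 the log2 fold change was 0.16.

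The spread of Gdf15 was wider than counting alone gives. Its counts were 269, 403 and 391 in controls and 613, 298 and 393 in MIRI, for which counting error would give an SD of 2.37 CPM in controls and 2.84 CPM in MIRI. The observed SD was 4.05 times that in controls and 7.14 times in MIRI. Counting error was thus the smaller part of the spread. The bases of the row that lie outside Gdf15 have no separate count. Rows of the table that lie neither on an exon nor wholly inside a gene had a median of 0 CPM per kb of row and a 90th percentile of 0.336 CPM per kb, against 14.2 CPM per kb for the Gdf15 row. Nearer by, within 20 kb of Gdf15, the rows Mef2b and Slc25a42 touch exons of other genes and had 0.549 and 2.31 CPM per kb. How much of the Gdf15 row's counts came from outside the gene was not tested.

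Uchl1, the deubiquitinating enzyme, was at 20.2, 28.1 and 27.7 CPM in controls 1 to 3 and at 18.0, 21.0 and 17.6 CPM in MIRI 1 to 3. Controls 2 and 3 were above every MIRI library, and control 1 lay within the MIRI range, just under MIRI 2. The means were 25.3 ± 4.44 CPM (SD, n = 3) in controls and 18.9 ± 1.85 CPM in MIRI. The log2 fold change was -0.42 ± 0.18 (SE), with a 95% interval of -0.82 to -0.01 and an unadjusted edgeR p of 0.0437. Rows with an unadjusted p under 0.05 in the lower direction made up 2.72% of all rows, and the value did not pass after adjustment (0.9996). The MIRI libraries differed from each other by little more than counting error (observed SD 1.14 times the counting SD), and the controls by 2.50 times. From the deposited FPKM values the log2 fold change was smaller, -0.26 with a pseudocount of 0.1 and -0.17 with a pseudocount of 1. Those values divide by the squared total count, and the median of all rows moved to 0.12 and 0.05 with the same pseudocounts. They are therefore not on the same footing as the value from counts.

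Fhl1, read through its alternative exon, was at 18.4, 15.9 and 13.6 CPM in controls 1 to 3 and at 11.2, 21.4 and 24.8 CPM in MIRI 1 to 3. MIRI libraries held both the lowest and the 2 highest levels, so that the controls lay inside the MIRI range. The means were 16.0 ± 2.40 CPM (SD, n = 3) in controls and 19.1 ± 7.10 CPM in MIRI. The log2 fold change was 0.28 ± 0.30 (SE), with a 95% interval of -0.39 to 0.95 and an unadjusted edgeR p of 0.366. It rested on single libraries. Without MIRI 1 it was 0.58 (unadjusted p = 0.011, edgeR adjusted p = 0.63), without MIRI 2 it was 0.18, and without MIRI 3 it was 0.03.

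**Figure D2:**
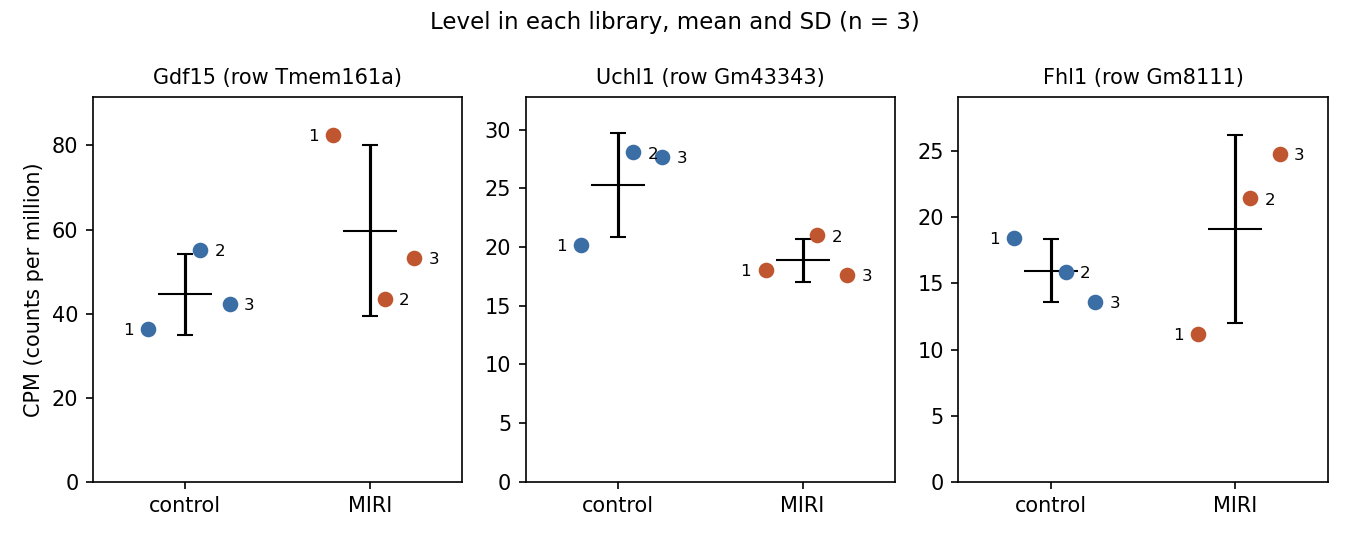
CPM of Gdf15, Uchl1 and Fhl1 in each library (points, numbered by replicate) with the group mean and SD (n = 3). MIRI 1 has the highest Gdf15 (82.5 CPM) and the lowest Fhl1 (11.2 CPM), and the groups overlap in every panel.

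The 3 genes did not share a pattern over the libraries. MIRI 1 had the highest Gdf15 and the lowest Fhl1 of all 6 libraries, and control 2 had the highest Uchl1 and the second highest Gdf15. Among controls, control 1 had the lowest Gdf15 and Uchl1 and the highest Fhl1. Among all tested rows, 3.83% had a smaller p than Uchl1, 7.75% than Gdf15 and 32.3% than Fhl1. The median absolute log2 fold change of these rows was 0.14, smaller than that of each of the 3 genes. The mean levels of Uchl1, Gdf15 and Fhl1 were above those of 63.8%, 80.2% and 59.0% of tested rows.

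**Figure D3:**
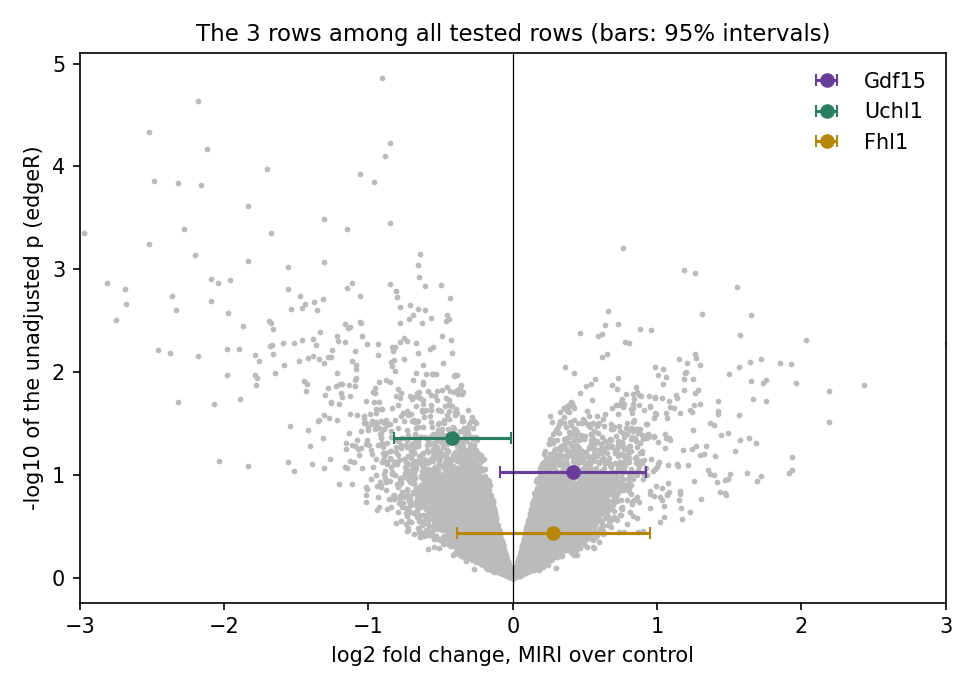
Log2 fold change of MIRI over control against -log10 of the unadjusted edgeR p for the tested rows (grey; 42 rows beyond 3 on the log2 axis are not drawn), with Gdf15, Uchl1 and Fhl1 and their 95% intervals in colour. The 3 genes sit at 0.42, -0.42 and 0.28, where the median absolute value of the tested rows is 0.14, and none passed after adjustment.

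Levels of different genes depend on which length they are divided by. Per kb of row, the mean level over the 6 libraries was 17.8 CPM per kb for Fhl1, 14.2 for Gdf15 and 11.5 for Uchl1. Per kb of exon covered, it was 165 CPM per kb for Uchl1, 87.8 for Fhl1 and 56.5 for Gdf15, which is another order. The counts of a row are not split into exon and intron bases, so the order of the 3 genes is not settled by these values. Within controls, Gdf15 and Uchl1 were at 12.1 and 13.1 CPM per kb of row and Fhl1 at 16.2. Within MIRI the levels were 16.3, 9.80 and 19.4.

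Intron reads can be seen directly for Fhl1, since another row of the table, Gm8107 (chromosome X, 56781907 to 56783915), lies wholly inside an intron of the gene, 1999 bp from the nearest exon. Over its 2009 bp, the controls held 20.6, 17.4 and 17.1 CPM, the MIRI libraries 10.9, 18.7 and 23.2 CPM, and the log2 fold change was -0.05 ± 0.27 (SE, edgeR adjusted p = 0.9996). As in the row on the alternative exon, MIRI 1 was the lowest library and MIRI 3 the highest. Per kb of row the intron row had 8.94 CPM, against 17.8 CPM for the row that holds the exon. How the counts of the Fhl1 row divide between exon and intron was not tested. For Uchl1, whose row is only 6.96% exon, and for Gdf15 no row of the table lies in an intron of the gene alone. Within 20 kb of Uchl1, the row Apbb2 touches no exon of any gene and had 8.43 CPM per kb. The row Gm43795, on an exon of another gene, had 0.293 CPM per kb, and the Uchl1 row 11.5. How the counts of the Uchl1 row divide between exon and intron was not tested. Over the whole table, the 11952 rows that lie inside a gene and on no exon held 3.51% of all counts, with a median of 0.337 CPM per kb and a 90th percentile of 7.60. The intron row of Fhl1 was picked after its values were seen.

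**Figure D4:**
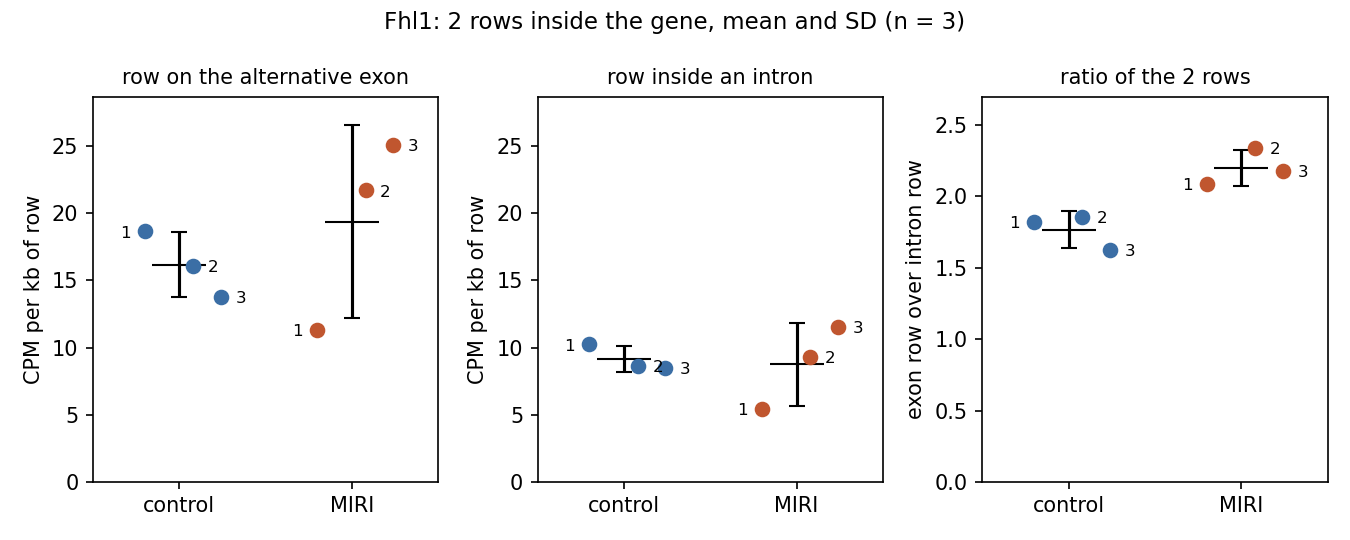
CPM per kb of the Fhl1 row with the alternative exon (left) and of the row inside an Fhl1 intron (middle), and the ratio of the 2 (right), in each library with mean and SD (n = 3). MIRI 1 is lowest in both rows, and the ratio is 1.62 to 1.86 in controls and 2.09 to 2.34 in MIRI.

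Genes around Gdf15 in its pathway were looked at by position, with counts summed per GRCm38 gene. Of 5917 genes tested this way 0% were called, 4.6% had an unadjusted p under 0.05 (1.64% higher, 2.96% lower), groups did not overlap in 3.46% higher and 5.48% lower, and the median log2 fold change was 0.01. The receptor genes Gfral and Ret had no row by position. Of 3 genes tested for processing enzymes, 0 passed: Pcsk5 and Pcsk6, proprotein convertases, were at -0.43 ± 0.26 (SE) and 0.30 ± 0.24 on the log2 scale, and the membrane protease gene Mmp14 at 0.08 ± 0.12.

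The integrated stress response, which turns on Gdf15 through the transcription factors ATF4 and CHOP, was covered by 15 of 40 listed genes, without Atf4, Atf3, Ddit3 and Trib3. All 15 were tested, 8 had a fold change above 0 and 7 below, and 0 passed. Their median log2 fold change was 0.05. Slc7a11, which encodes a cystine transporter, had the smallest p of the list: it had 27.4 ± 3.55 CPM (SD, n = 3) among controls and 39.7 ± 11.9 CPM in MIRI, a log2 fold change of 0.53 ± 0.21. Wars, a tRNA synthetase gene, was at 0.16 ± 0.13 and Eif2ak3, which encodes the stress kinase PERK, at -0.09 ± 0.12.

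Targets of p53, another regulator of Gdf15, were covered by 8 of 24 genes, of which 0 passed, 3 had a value above 0 and 5 below, with a median of -0.02. Btg2, an antiproliferative gene, was at -0.25 ± 0.16 (SE), Rrm2b, a ribonucleotide reductase subunit gene, at 0.15 ± 0.17, and Trp53inp1 at -0.11 ± 0.17. Among ligands of the transforming growth factor beta superfamily 5 of 23 had a row and 3 were tested, with 0 passing and a median of -0.00. Bmp6, a bone morphogenetic protein gene, averaged 111 ± 38.8 CPM (SD, n = 3) among controls and 57.7 ± 15.7 CPM among MIRI libraries, from 51 bp of exon (log2 fold change -0.92 ± 0.30, edgeR adjusted p = 0.851). Gdf11 was at 0.19 ± 0.13, and Gdf6 at -0.00 ± 0.33 with 765 CPM over all libraries.

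Around Uchl1, ubiquitin genes and other deubiquitinases had values close to 0. Of 19 listed, 6 were tested, 0 passed, and the median log2 fold change was -0.06. Ubb, a polyubiquitin gene, had 1280 ± 69.4 CPM (SD, n = 3) among controls and 1266 ± 62.2 CPM in MIRI. Rps27a, which encodes ubiquitin fused to a ribosomal protein, was at -0.06 ± 0.14 (SE), and the deubiquitinase genes Stambp and Atxn3 were at -0.07 ± 0.18 and -0.06 ± 0.18. The family members Uchl3, Uchl4, Uchl5 and Bap1 had no row by position.

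Neuron markers were measured beside Uchl1. Of 26 listed 5 had a row, and they summed to 130 to 272 CPM in controls and 106 to 225 CPM in MIRI. Nearly all of that was Map2, which encodes a microtubule protein, at 185 ± 73.8 CPM (SD, n = 3) and 175 ± 64.6 CPM. Chgb, a secretory granule gene of neuroendocrine cells, was at 3.14 ± 0.873 and 2.77 ± 0.193 CPM, and Nefm, Chga and Elavl3 had means of 0.443 CPM or less over the 6 libraries. The 2 tested markers had a median log2 fold change of -0.13, with 0 passing. Schwann cell markers summed to 28.9 to 37.7 CPM in controls and 28.3 to 37.7 CPM in MIRI (5 of 13 with a row). Prx, which encodes a myelin protein also found elsewhere, made up most of it, and Cdh19 was at 3.46 ± 2.42 and 2.39 ± 0.429 CPM. The part of these cells in the Uchl1 values was not tested.

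Around Fhl1, 9 of 22 other LIM domain genes had a row and 7 were tested, with 0 passing and a median of 0.03. Fhl2, the family member of heart muscle, which is given for its kinship and was chosen after its values were seen, was at 0.20 ± 0.29 (SE), and Fhl4 and Fhl5 were too low to test. Ablim1, which encodes an actin-binding LIM protein, had the smallest p of the list, with 117 ± 21.9 CPM (SD, n = 3) in controls and 69.3 ± 15.5 CPM in MIRI (log2 fold change -0.75 ± 0.22, edgeR adjusted p = 0.642). Pdlim5, at 692 ± 25.7 and 742 ± 7.39 CPM, and Csrp2, at 66.4 ± 36.9 and 50.9 ± 21.5 CPM, encode muscle and cytoskeleton proteins and did not pass.

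Muscle markers were looked at beside Fhl1. The 18 striated muscle genes with a row summed to 13.6 to 22.9 CPM in controls and 11.6 to 23.8 CPM in MIRI. Neb, the gene of the thin-filament protein nebulin, was at 5.82 ± 1.23 and 7.89 ± 2.09 CPM (SD, n = 3), and Myom1, a gene of the sarcomere M-band, at 5.59 ± 2.20 and 5.01 ± 3.11 CPM. The 3 tested had a median log2 fold change of -0.13. Smooth muscle genes summed to 35.7 to 37.8 CPM in controls and 43.1 to 58.5 CPM in MIRI (4 of 9 with a row). All 4 were above 0, with a median of 0.22, and 0 passed. Myh11, the smooth muscle myosin gene, was at 14.3 ± 2.41 and 17.1 ± 4.0 CPM, Synpo2 at 8.46 ± 1.73 and 9.56 ± 1.46 CPM, and Actg2 at 3.57 ± 2.0 and 10.5 ± 5.11 CPM (edgeR adjusted p = 0.728). The part of muscle cells in the Fhl1 values was not tested.

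Markers of sex and of blood vessels differed between the libraries in the same comparison. Uty, Kdm5d, Eif2s3y and Ddx3y, which lie on the Y chromosome, summed to 5.01, 1.51 and 6.59 CPM in controls 1 to 3 and to 310, 26.2 and 63.9 CPM in MIRI 1 to 3. MIRI 1, with the most Y-linked counts, had the lowest level of the X-linked Fhl1 and the highest of Gdf15. MIRI 3, with the next highest Y-linked sum, had the highest Fhl1 (24.8 CPM), and its Gdf15 (53.2 CPM) lay within the control range. Endothelial genes (7 of 18 with a row, among them Robo4, Pecam1 and Tie1, led by Eng) summed to 320, 803 and 655 CPM in controls and to 173, 219 and 210 CPM in MIRI. All 7 were tested and had a value below 0, with a median log2 fold change of -4.74, and 0 passed after adjustment. An unadjusted edgeR p under 0.05 was found for 6, against 2.96% of all genes by position in the lower direction. Groups did not overlap for 6, against 5.48% in that direction. Eng was at -0.38 ± 0.20 (SE). The 4 Y-linked genes had a median of 4.85, and 0 passed. All 4 had an unadjusted edgeR p under 0.05 and groups that did not overlap. In the higher direction these shares were 1.64% and 3.46% of all genes by position. Robo4, a guidance receptor gene of vessels, averaged 6.69 ± 2.67 CPM (SD, n = 3) over the controls and 0.0897 ± 0.155 CPM over the MIRI libraries (edgeR adjusted p = 0.082), and no gene by position had a smaller adjusted p. Control 1 had the lowest endothelial sum and the lowest Uchl1 level of its group. Whether these differences have a part in the values of the 3 genes was not tested.

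The sums of the macrophage, fibroblast, cartilage and photoreceptor lists overlapped between the groups, whereas those of the smooth muscle list above did not. Of the 4 tested smooth muscle genes only 1, Actg2, had groups that did not overlap. That was found in the higher direction for 3.46% of all genes by position, and no such share was taken for sums of lists. Of the genes given above or below, Gdf11 and Pdlim5 also had groups apart in the higher direction. Thy1, Col9a2 and Ablim1 had groups apart in the lower direction, as did 5.48% of all genes by position. Macrophage genes, from cells that can also make Gdf15, summed to 86.1 to 134 CPM in controls and 93.6 to 146 CPM in MIRI (6 of 13 with a row). Csf1r, the receptor gene for the macrophage growth factor, was at 95.6 ± 16.0 and 105 ± 18.2 CPM (SD, n = 3), and Lyz2 at 17.3 ± 9.57 and 20.4 ± 11.1 CPM. Among fibroblast genes Dcn was at 27.2 ± 6.64 and 17.7 ± 2.88 CPM, Thy1 at 782 ± 49.2 and 608 ± 77.3 CPM, and Col1a1 at 7886 ± 1205 and 9710 ± 1304 CPM, with a list median of 0.07 on the log2 scale. The 4 tested cartilage genes had a median of 0.24, with Col9a3 at 0.62 ± 0.30 (SE), Col9a2 at -0.32 ± 0.16 and Col11a2 at 0.53 ± 0.35, and the 2 tested photoreceptor genes 0.55, with Opn1sw at 0.38 ± 0.30. None of these genes passed.

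The genes most like each of the 3 over the 6 libraries were picked by Pearson's r of log2 CPM among 4060 genes of at least 10 CPM. For Gdf15 they were Cep41 (r = 0.995), Xrcc6 (0.987) and Maged1 (0.980), for Uchl1 Ppp1r12c (0.979), Tspan6 (0.971) and Sypl (0.962), and for Fhl1 Dao (0.988), Gnai3 (0.985) and Gm43627 (0.982). Cep41, a centrosome protein gene, ran from 27.8 CPM in control 1 to 43.6 CPM in MIRI 1, a smaller range than that of Gdf15. Gnai3, a G protein subunit gene, stayed between 427 and 459 CPM. The values share libraries and depth, and an r above 0.9 was found for 84 candidates with Gdf15, 30 with Uchl1 and 31 with Fhl1, so they are given as a description.

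The direction of each of the 3 genes was the same under every alternative that was run. Over 17 alternatives the log2 fold change of Gdf15 ran from 0.16 to 0.58, that of Uchl1 from -0.56 to -0.17 and that of Fhl1 from 0.03 to 0.58, and none passed the threshold (smallest adjusted p 0.443, 0.707 and 0.63).

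**Figure D5:**
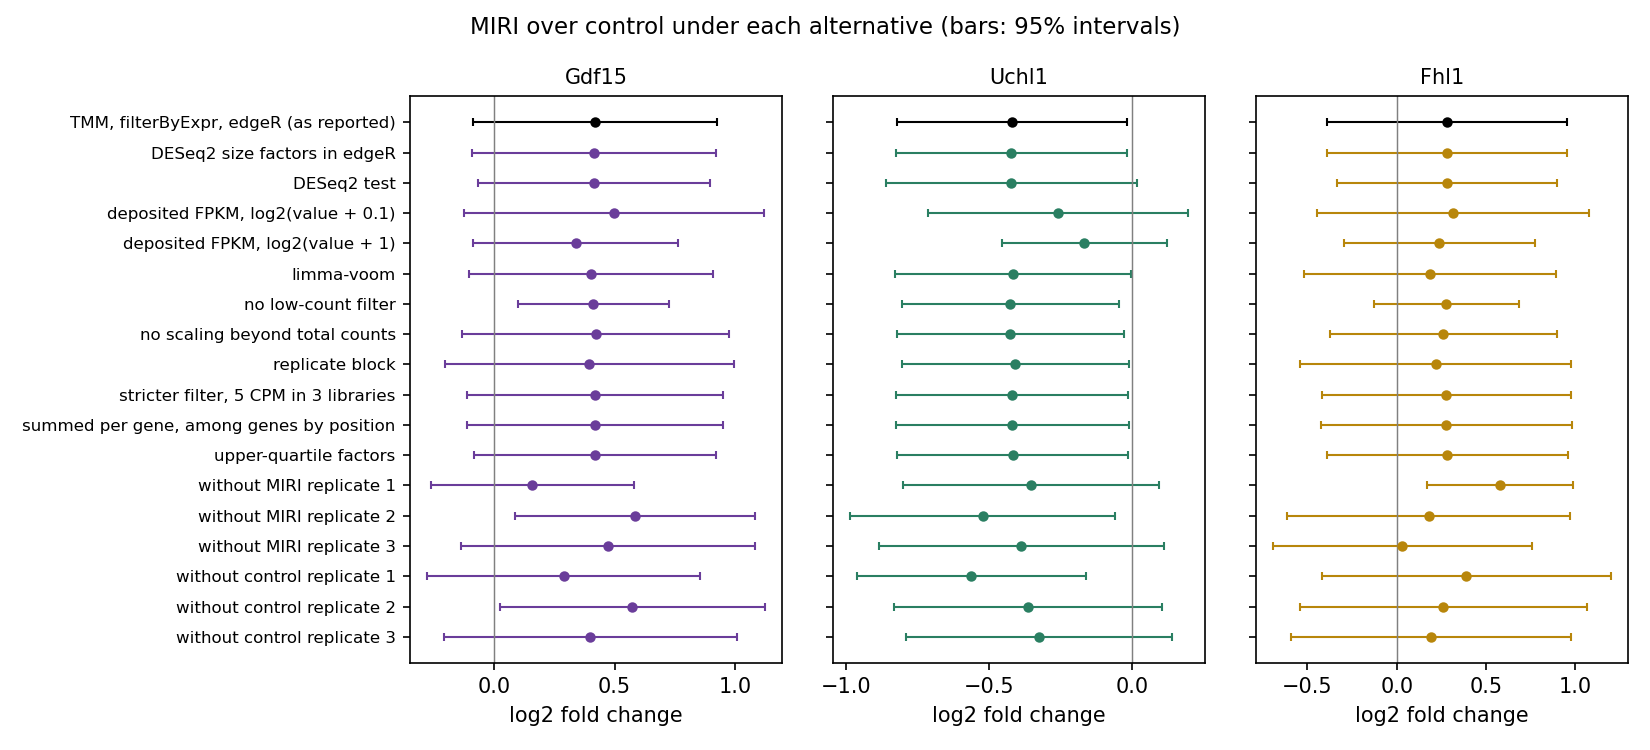
Log2 fold change of MIRI over control with its 95% interval for Gdf15, Uchl1 and Fhl1, as reported (black) and under each of 17 alternatives (colour). Gdf15 and Fhl1 stay above 0 and Uchl1 below 0 in all of them, and most intervals for Gdf15 and Fhl1 include 0. Some for Uchl1 include 0 too, among them the DESeq2 test and the fits without control 2, control 3, MIRI 1 or MIRI 3.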

How the data were processed

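RNA was sequenced from 3 control and 3 MIRI samples. Counts per row come from the authors, who ran featureCounts 2.0.1 per the file headers, with exons grouped by gene name, both mates required to align, chimeric pairs dropped and no strand option given. The deposited FPKM values equal counts divided by row length and by the squared total count, and served only as an alternative. The submitters' processing notes list Bowtie 0.12.2, mm8 and mm9; the aligner and build of these alignments are not given in the sources used here, so names by position rest on assuming GRCm38.

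Row intervals were laid over GENCODE M21 exons (GRCm38) with bedtools 2.31.1, with no coordinate converted. A row took the name of the gene holding at least 80% of the exon bases it overlaps and at least 50 bp, which named 14930 rows for 11910 genes. CPM are relative to all counts of a library. Groups were compared with edgeR 4.0.16 (TMM, filterByExpr, quasi-likelihood test, two-sided, threshold 0.05) in R 4.3.3, checked on simulated data. Alternatives used DESeq2 1.42.0 and limma 3.58.1. Named by rule are the 3 genes and up to 3 genes per list with at least 2 CPM and the smallest p. The rule also takes each marker list's highest gene and the 3 genes most like each of the 3 in pattern. Outside it are Fhl2, given for its kinship, Ubb, and genes named for having no row or few counts. The members and lists were chosen with earlier results of these data known.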

Additional observations from a re-analysis of the deposited data

How the results depend on the processing

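Across all rows 0 were called higher and 0 lower with edgeR. The DESeq2 test called 8 higher and 77 lower, no low-count filter 124 and 231, and deposited FPKM 1 higher with either pseudocount and 1 lower with a pseudocount of 0.1. With any single library removed, 0 rows were higher and 0 to 31 were lower, the most when it was control 1. Among listed genes by position, 0 were called as reported, 4 higher and 5 lower both with the DESeq2 test and with no low-count filter, and 0 higher and 0 to 2 lower without 1 library. All of these were Y-linked (higher) or endothelial (lower). The causes were not tested. Gdf15, Uchl1 and Fhl1 were not among the calls of any setting. Without 1 library their log2 fold changes ran from 0.16 to 0.58, from -0.56 to -0.32 and from 0.03 to 0.58. Deposited FPKM moved the median of all rows to 0.12 with a pseudocount of 0.1, where Gdf15 was at 0.50, Uchl1 at -0.26 and Fhl1 at 0.31. With the replicate number as a block the values were 0.39, -0.41 and 0.22, and no call changed. Deviations of same-numbered libraries correlated at -0.23, -0.38 and 0.30. With so few libraries per group, these values cannot decide whether the numbers pair the samples.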

Other observations

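Within Fhl1, the row on the alternative exon was set against the row inside an intron, both per kb. The row on the exon is itself 787 bp intron and 200 bp exon, and the intron row lies elsewhere in the gene. The ratio is thus not one of exon reads over intron reads. Controls 1 to 3 had ratios of 1.82, 1.86 and 1.62, and MIRI 1 to 3 had ratios of 2.09, 2.34 and 2.18. The groups did not overlap, with means of 1.77 ± 0.127 and 2.20 ± 0.127 (SD, n = 3). In 8.81% of single tested rows the groups did not overlap either, and this share was not taken for ratios of rows. An exact two-sided permutation test gave p = 0.1, the smallest it can give for 3 against 3. It gives that p wherever the groups do not overlap. Over summed counts (378 and 437 in controls, 413 and 380 in MIRI) the ratio was 1.26 times as high in MIRI, and its 95% interval, which takes in counting error alone, ran from 1.03 to 1.53. This comparison was chosen after the data were seen. In MIRI 1, where both rows were at their lowest, the ratio lay with the other MIRI libraries.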
